A study of Homo sapiens with 70 samples.

Results

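The SERPINB genes SERPINB5, SERPINB4, SERPINB3, SERPINB7, SERPINB2, SERPINB10 and SERPINB8 lie side by side at 18q21, and their RNA was followed in IMR90 fibroblasts and H1299 cells. These 7 genes, out of the 44503 in each count table, were taken by name and put in order by their start on chromosome 18. They were chosen by the higher level of SERPINB4 in growing cells with HMGA1 knock-down. The values of all members in Grow-shA1 against Grow cells are therefore given as a description, with no test.

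The libraries come from 3 count tables. IMR90 are normal human fibroblasts of fetal lung, and all IMR90 cells here carried an ER:HRAS G12V fusion from the vector pLNCX2, which 4-hydroxytamoxifen (4OHT) switches on. In the first experiment (8 libraries per group), Grow and OIS cells carried the empty vector pMSCV miR v, and Grow-shA1 and OIS-shA1 cells carried pMSCV miR shHMGA1, a short hairpin against HMGA1. OIS stands for oncogene-induced senescence, and the OIS groups were taken after 6 days in 100 nM 4OHT, whereas the Grow groups had none. In the second experiment (5 libraries per group), Grow-v-v and OIS-v-v cells carried the empty vectors pSuper v and pMSCV miR v. OIS-shCEBPB cells carried pSuper shCEBPB with pMSCV miR v, OIS-shp53 cells carried pSuper v with the pMSCV miR hairpin against p53, and OIS-shCEBPB-shp53 cells carried both hairpins. H1299, a non-small cell lung carcinoma line, was measured with pMSCV miR v (7 libraries) and with pMSCV miR shHMGA1 (H1299-shA1, 6 libraries). The labels name 1 hairpin for each gene knocked down, and the transduced cells had been kept under antibiotic selection.

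SERPINB proteins are the intracellular serpins, a family that traps proteases by offering them a reactive loop as bait. SERPINB2 (plasminogen activator inhibitor 2) inhibits the urokinase-type and tissue-type plasminogen activators, SERPINB3 inhibits papain-like cysteine cathepsins, SERPINB4 inhibits chymotrypsin-like proteases, and SERPINB8 can inhibit furin. SERPINB5 (maspin) is a serpin without inhibitory activity, SERPINB10 (bomapin) is best known from blood cells and SERPINB7 (megsin) from mesangial cells and epidermis. HMGA1 is an architectural chromatin protein that binds AT-rich DNA, and C/EBPβ is a transcription factor that drives inflammatory secretion in senescence.

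In hg19, the members spanned 528.3 kb of chromosome 18. From the low end they were SERPINB5 (61143994 to 61172318, plus strand), SERPINB4 (61304493 to 61311532, minus strand), SERPINB3 (61322431 to 61329197, minus strand), SERPINB7 (61420169 to 61472604, plus strand), SERPINB2 (61538926 to 61571124, plus strand), SERPINB10 (61564408 to 61603345, plus strand) and SERPINB8 (61637159 to 61672278, plus strand). Between them lie 3 further SERPINB genes that are not members. SERPINB11, SERPINB12 and SERPINB13 had mean levels of at most 0.0211 CPM (a library's counts scaled to 1e6 with TMM-normalised library sizes) in every group, so none was compared. Some members share exon bases with a neighbour, and in the first IMR90 and the H1299 table fragments or reads there were assigned to neither gene. This touches 547 bases between SERPINB2 and SERPINB10, 620 between SERPINB3 and SERPINB11, and 370 between SERPINB8 and HMSD. SERPINB3 and SERPINB4 are near copies, and 23.39% of the 50-base windows of SERPINB3 exons occur unchanged in SERPINB4. Reads with several alignments were not counted in those tables either, so there the levels of this pair understate their RNA to an extent that was not measured.

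The promoters of this pair and of SERPINB2 are shown because these 3 genes moved most. The sequences are the 250 bases before the annotated start, from RefSeq on GRCh38.p14, given 5′ to 3′ on the strand of the gene. In SERPINB4 (minus strand, chr18:63644257-63644506) and SERPINB3 (minus strand, chr18:63661894-63662143), capitals mark the bases that differ between both. In SERPINB2 (plus strand, chr18:63887455-63887704), capitals mark a match to the AP-1 motif TGANTCA.
SERPINB4: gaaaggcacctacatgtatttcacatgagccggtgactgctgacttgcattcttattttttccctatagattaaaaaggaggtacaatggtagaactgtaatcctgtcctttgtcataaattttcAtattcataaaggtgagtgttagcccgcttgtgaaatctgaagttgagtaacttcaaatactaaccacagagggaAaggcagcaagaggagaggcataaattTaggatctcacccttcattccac
SERPINB3: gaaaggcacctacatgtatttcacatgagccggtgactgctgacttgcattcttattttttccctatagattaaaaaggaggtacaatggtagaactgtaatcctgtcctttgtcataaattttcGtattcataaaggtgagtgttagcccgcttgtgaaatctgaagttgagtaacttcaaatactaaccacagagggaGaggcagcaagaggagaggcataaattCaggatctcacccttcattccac
SERPINB2: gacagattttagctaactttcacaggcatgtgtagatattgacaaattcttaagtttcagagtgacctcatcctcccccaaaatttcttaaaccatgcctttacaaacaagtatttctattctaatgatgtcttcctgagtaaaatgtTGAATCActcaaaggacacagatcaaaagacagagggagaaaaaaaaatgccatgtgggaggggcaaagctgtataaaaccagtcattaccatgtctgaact
The windows of SERPINB4 and SERPINB3 were 98.8% identical, and the 3 differences, with the SERPINB4 base first and positions counted from 1 at the 5′ end, were A126G, A201G and T228C. They held no match to any of the motifs searched on both strands, which were TGANTCA (AP-1), TTGCNNAA (C/EBP), and GGG and TTCC with 3 bases between (NF-kB). SERPINB2 held 1 AP-1 match, SERPINB8 held 2 AP-1 matches and 1 C/EBP match (TTGCACAA, starting 57 bases before the start), and SERPINB5 held 1 AP-1 match. SERPINB7 has 3 annotated starts, and 2 of their windows held 2 AP-1 matches each and the other an NF-kB match. Among all 35116 promoter windows of the same length, 6.57% held the AP-1 motif, 9.05% the C/EBP and 5.67% the NF-kB motif. AT content was 60.4% in the SERPINB4 window, 59.2% in SERPINB3 and 62.8% in SERPINB2, against a median of 42.0% over all windows. The start of SERPINB7 with the most A and T had 74.0% AT with an unbroken A/T run of 17 bases, and 99.6% of all windows had less AT. SERPINB10 had no entry in the table of promoters.

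The depth of the libraries ran from 13904974 to 24890797 counts, except for OIS replicate 4, which held 1903607. HMGA1 and CEBPB, both targeted by a hairpin, moved as labelled. HMGA1 stood between 26.8 and 38.8 CPM in Grow-shA1 against 440 to 552 CPM in Grow libraries, between 51.4 and 68.6 CPM in OIS-shA1 against 645 to 829 CPM in OIS, and between 359 and 447 CPM in H1299-shA1 against 1710 to 1990 CPM in H1299. CEBPB stood between 26.3 and 42.8 CPM in OIS-shCEBPB against 261 to 331 CPM in OIS-v-v. All 7 fibroblast markers reached a mean of 1 CPM in every IMR90 group, whereas 1 of the 7 did in H1299 (COL1A1). H1299 had 444 CPM of KRT18 and 494 CPM of KRT8, the keratins of simple epithelium, and the squamous keratins KRT5 and KRT14 were at or near 0 in both lines.

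Levels differed widely between members. Per kilobase of exon, which allows genes to be set against each other, growing cells with the empty vector had a mean level of 23.5 CPM per kb for SERPINB2, 22.1 for SERPINB7 and 14.6 for SERPINB8. SERPINB4 was at 0.101 CPM per kb there and SERPINB3 at 0 counts in all 8 Grow libraries. In OIS cells the level per kb was 702 for SERPINB2, 31.8 for SERPINB7, 28.3 for SERPINB8, 24.4 for SERPINB4, 0.921 for SERPINB3 and 0.375 for SERPINB10. SERPINB5 was practically silent throughout, with at most 2 counts in any of the 70 libraries, and it was not compared further.

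**Figure D1:**
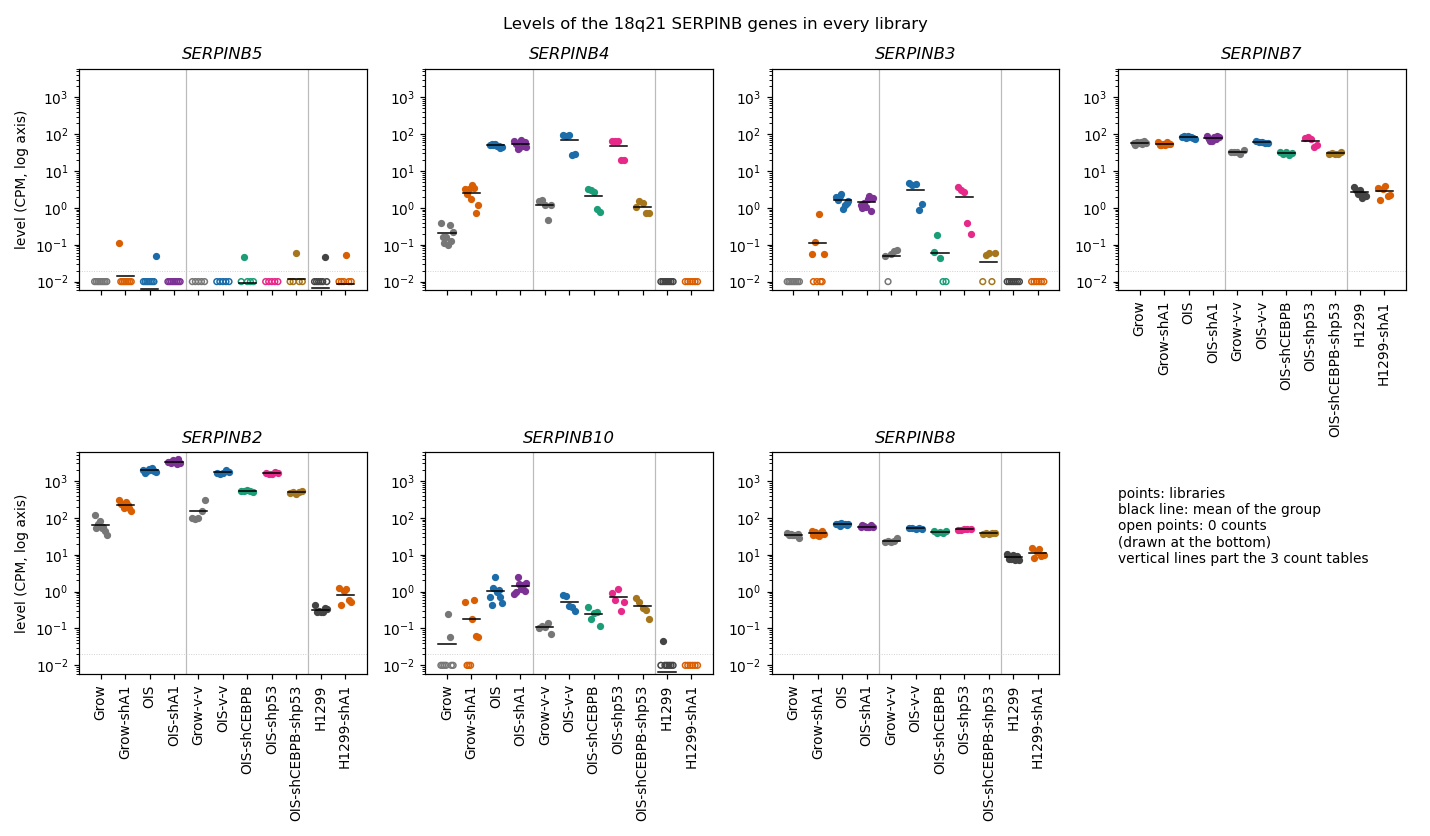
Level of each member (CPM, log axis) in every library of the 11 groups, with each group's mean as a black line and libraries with 0 counts as open points at the bottom. SERPINB2 reaches 1690 CPM and more in all OIS and OIS-shA1 libraries, and SERPINB4 and SERPINB3 have 0 counts in all H1299 libraries.

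The first question was how HMGA1 knock-down touches these genes in growing cells. SERPINB4, for which the cluster was chosen, had between 2 and 6 counts in each of the 8 Grow libraries (lowest 0.1, median 0.163, highest 0.382 CPM). In the 8 Grow-shA1 libraries it had 12 to 66 counts (lowest 0.741, median 2.82, highest 4.10 CPM). The groups did not overlap, yet SERPINB4 stayed a low gene in Grow-shA1 cells. The log2 fold change was 3.65 (standard error 0.37). SERPINB2 also stood higher in every Grow-shA1 library (lowest 153, median 225, highest 306 CPM) than in any Grow library (lowest 33.8, median 56.3, highest 121 CPM), and its log2 fold change was 1.80 (standard error 0.18).

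The remaining members differed little or were too low in growing cells. SERPINB7 had a log2 fold change of -0.08 (standard error 0.05) and SERPINB8 of 0.15 (standard error 0.06) in Grow-shA1 against Grow cells, and both groups overlapped for each gene. SERPINB3 had 0 counts in all Grow libraries and 15 counts over the Grow-shA1 libraries, 11 of them in replicate 5. SERPINB10 had 6 counts over the Grow and 24 over the Grow-shA1 libraries. Over the 4 members that passed the filter on low counts, the median log2 fold change was 0.98. Over all genes tested it was 0.007. SERPINB4, by which the cluster was chosen, is among these 4 and passed the filter only through the Grow-shA1 libraries. This median is therefore a description and no result about the members. For SERPINB3, SERPINB5 and SERPINB10, which did not pass, no fold change is given.

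The same knock-down in senescent cells was not part of the choice of members and could be tested. SERPINB2 rose further in OIS-shA1 cells, SERPINB8 fell slightly, and SERPINB4 and SERPINB3 stayed within the spread of the libraries. Among the 6 members that passed the filter, 3 were called at an adjusted p under 0.05 in OIS-shA1 against OIS cells. Of these 3, SERPINB10 passed the filter only through the OIS-shA1 libraries. Of all genes tested, 35.9% were called in this comparison. SERPINB2 stood at a lowest, median and highest level of 1690, 1920 and 2220 CPM in OIS and of 2930, 3310 and 3920 CPM in OIS-shA1 libraries. Every OIS-shA1 library exceeded every OIS library, and the log2 fold change was 0.79 (edgeR adjusted p = 5.66e-11, standard error 0.06).

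SERPINB8, the furin inhibitor, had a lowest, median and highest level of 61.6, 67.3 and 74.6 CPM in OIS and of 54.8, 57.0 and 62.7 CPM in OIS-shA1 libraries. Of the OIS-shA1 libraries, 6 of 8 lay below every OIS library, and the log2 fold change was -0.20 (edgeR adjusted p = 0.00111, standard error 0.05). SERPINB4 had a lowest, median and highest level of 42.3, 49.7 and 54.7 CPM in OIS and of 38.6, 51.9 and 71.2 CPM in OIS-shA1 libraries. Its log2 fold change was 0.14 (edgeR adjusted p = 0.277, standard error 0.10), and the groups overlapped. SERPINB3 had a log2 fold change of -0.12 (edgeR adjusted p = 0.703, standard error 0.22) and SERPINB7 of -0.07 (edgeR adjusted p = 0.433, standard error 0.06).

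SERPINB10, the neighbour that overlaps SERPINB2, had 5 to 22 counts in the OIS and 15 to 48 counts in the OIS-shA1 libraries, and its levels overlapped between the groups. Its log2 fold change was 0.74 (edgeR adjusted p = 0.0334, standard error 0.27), and this call was fragile. Leaving out any 1 of OIS replicates 1, 2, 7 and 8 or of OIS-shA1 replicates 3, 4, 6 and 8 ended it, with the log2 fold change between 0.57 and 0.85 over all 16 such fits and an adjusted p of up to 0.102. For every 1000 counts of SERPINB2 there were 0.433 counts of SERPINB10 in OIS and 0.428 in OIS-shA1 libraries. Over the other IMR90 groups this ratio ran from 0.31 in OIS-v-v to 0.856 in OIS-shCEBPB-shp53 libraries. Whether SERPINB10 counts arise from SERPINB2 transcripts was not tested.

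The response to knock-down in both states shares no library, but the first of these contrasts chose the members. Side by side, the log2 fold change of SERPINB4 was 3.65 in growing and 0.14 in senescent cells, and that of SERPINB2 was 1.80 and 0.79. No test of the difference is given, since it would use the contrast of the choice.

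**Figure D2:**
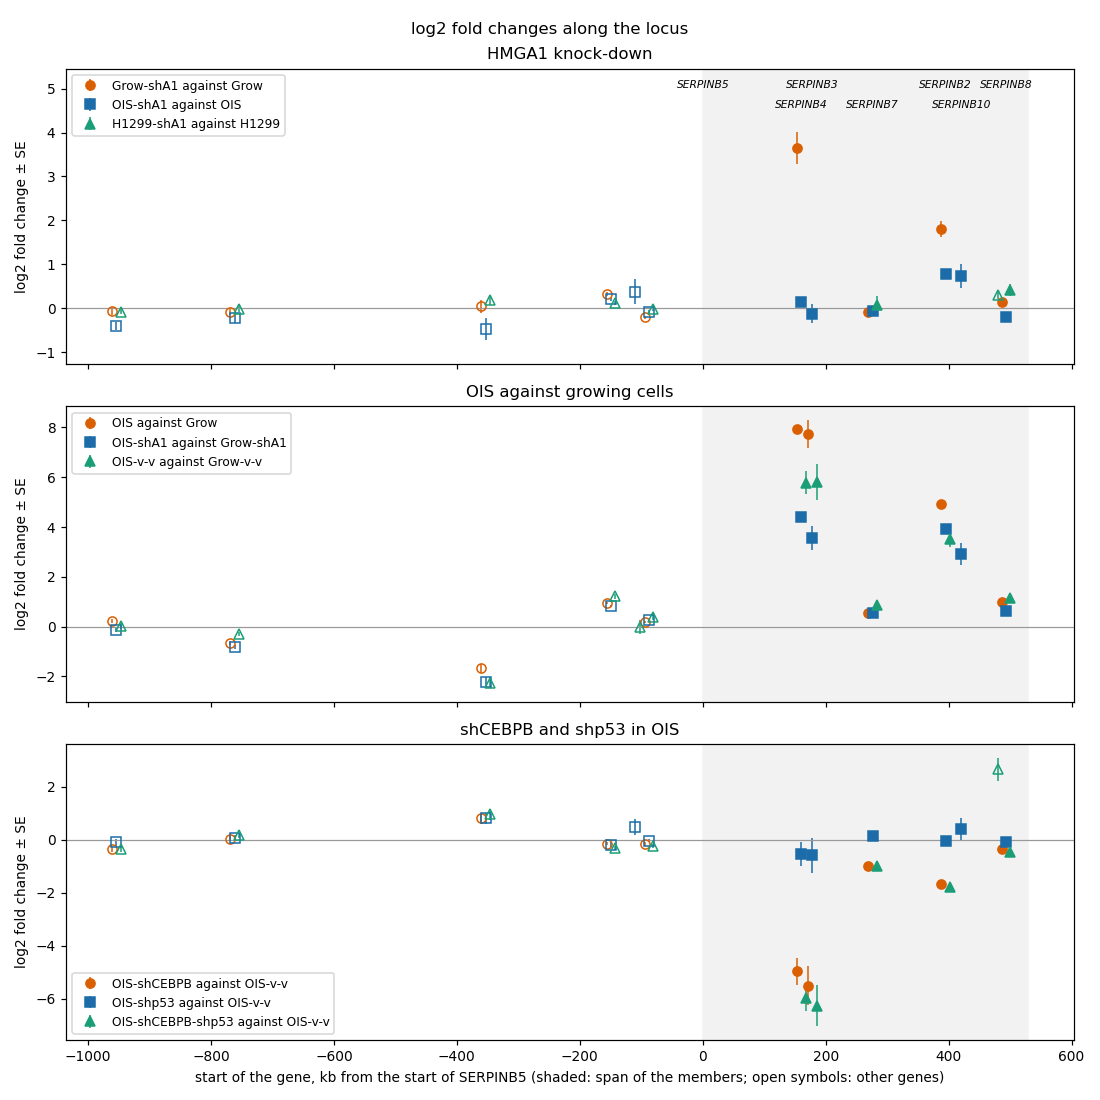
log2 fold change with its standard error (vertical axis) against the start of each gene in kb from the start of SERPINB5 (horizontal axis; symbols shifted slightly to part the comparisons), for the members (filled symbols, shaded span) and the other tested genes within 1000 kb (open symbols). In the middle panel SERPINB4, SERPINB3 and SERPINB2 lie at 3.51 or above in all comparisons, and SERPINB7 and SERPINB8 lie between 0.53 and 1.13.

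In both IMR90 experiments, 5 of the 7 members passed the filter and stood higher in OIS than in growing cells with the empty vector. Some passed only through the OIS libraries, so this count is a description. Of all genes tested, 74.8% were called in the first and 45.8% in the second experiment. SERPINB10 did not pass the filter in either, and SERPINB5 stayed silent. In OIS against Grow cells of the first experiment, SERPINB2, the urokinase inhibitor, rose to 1930 ± 181 CPM (SD, n = 8) from 64.5 ± 27.5 CPM, a ratio of the means of 29.9. SERPINB4 rose to 49.2 ± 4.22 CPM from 0.203 ± 0.108 CPM, and SERPINB3 appeared at 1.64 ± 0.511 CPM where Grow libraries held no count. SERPINB7 and SERPINB8 rose less than 2-fold on the ratio of their means. Whether more cells expressed these genes or each cell held more of their RNA cannot be told apart in bulk libraries.

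The Grow and Grow-shA1 libraries are those of the contrast by which the members were chosen, so both comparisons of OIS with growing cells in this experiment are not independent of the choice. SERPINB4 is therefore given without a test, with a log2 fold change of 7.94 in OIS against Grow. The other 4 members that passed the filter were called higher, where 74.8% of all genes tested were called, and SERPINB3 and SERPINB4 passed that filter only through the OIS libraries. The count is thus a description and no result about the members. SERPINB2 had a log2 fold change of 4.93 (edgeR adjusted p = 1.73e-20, standard error 0.17). It was 0.54 for SERPINB7 (edgeR adjusted p = 9.93e-11, standard error 0.05) and 0.98 for SERPINB8 (edgeR adjusted p = 7.31e-16, standard error 0.05). For SERPINB3, against a floor of 3 counts per Grow library, OIS cells were at least 9.28-fold higher by their mean (edgeR adjusted p = 4.69e-11). That mean of 1.64 CPM was 1.52 CPM without the shallow OIS replicate 4, which would lower the bound.

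SERPINB10 did not pass the filter here. It had 5 to 22 counts in the OIS libraries and at most 5 in the Grow libraries, 6 of which held none. Fitted without the filter, its log2 fold change was 4.13 (edgeR adjusted p = 3.45e-09, standard error 0.57), where 47.2% of genes were called. OIS replicate 4, the shallow library, had its highest level at 2.44 CPM from 5 counts, and without that library the OIS mean was 0.81 CPM instead of 1.01 CPM.

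In cells with the HMGA1 hairpin, OIS-shA1 against Grow-shA1, SERPINB4 had a log2 fold change of 4.41, again given without a test. The other 5 members that passed the filter were called higher, where 73.1% of genes tested were called. SERPINB3 and SERPINB10 passed only through the OIS-shA1 libraries, so this count is a description and no result about the members. On the log2 scale the fold change was 3.91 for SERPINB2 (edgeR adjusted p = 1.13e-21, standard error 0.11) and 3.55 for SERPINB3 (edgeR adjusted p = 2.11e-07, standard error 0.48). Without Grow-shA1 replicate 5, which held 11 of the 15 SERPINB3 counts of its group, the value for SERPINB3 was 5.08. SERPINB10 had a log2 fold change of 2.91 (edgeR adjusted p = 1.58e-06, standard error 0.44). SERPINB7 and SERPINB8 had log2 fold changes of 0.53 and 0.61 (standard errors 0.07 and 0.06, edgeR adjusted p = 9.72e-08 and 3.58e-10).

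In the first experiment the levels of SERPINB2 rose in the order Grow, Grow-shA1, OIS, OIS-shA1, and no neighbours in that order overlapped. The order was the same for SERPINB4, but there the OIS and OIS-shA1 libraries overlapped. The step from Grow to Grow-shA1 is the contrast by which the members were chosen, so for both genes this order is a description.

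The second experiment gave the same comparison in other libraries that had no part in the choice. SERPINB2 stood at 99.3, 94.8, 101, 155 and 302 CPM in Grow-v-v replicates 1 to 5 and at 1660, 1530, 1600, 2040 and 1720 CPM in OIS-v-v replicates 1 to 5. SERPINB4 stood at 1.55, 1.67, 1.16, 0.478 and 1.19 CPM in Grow-v-v and at 96.6, 91.4, 94.1, 27.2 and 29.6 CPM in OIS-v-v libraries. No OIS-v-v library of either gene overlapped with a Grow-v-v library, but SERPINB4 was much lower in OIS-v-v replicates 4 and 5 than in replicates 1 to 3. SERPINB3 had at most 1 count per Grow-v-v library (4 in all) and 85, 71, 74, 16 and 21 counts in the OIS-v-v libraries, with the same 2 replicates low.

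Again 5 of the 5 members that passed the filter were called higher in OIS-v-v against Grow-v-v, where 45.8% of all genes tested were called. SERPINB3 passed only through the OIS-v-v libraries. SERPINB4 had 7 counts in Grow-v-v replicate 4 and would not have passed on the Grow-v-v libraries alone. This count is thus a description as well. Here the log2 fold change was 3.51 for SERPINB2 (edgeR adjusted p = 2.29e-06, standard error 0.31), 5.78 for SERPINB4 (edgeR adjusted p = 1.15e-06, standard error 0.47) and 5.82 for SERPINB3 (edgeR adjusted p = 3.17e-05, standard error 0.72). The ratio of the summed SERPINB3 levels was 64.5, with a 95% interval of 24.9 to 239 that covers counting error only. Its log2 fold change was 6.67 in replicates 1 to 3 alone and 3.80 in replicates 4 and 5 alone, and that of SERPINB4 was 6.0 and 5.09. SERPINB7 stood at 33.3, 32.8, 32.2, 29.4 and 38 CPM in Grow-v-v and at 65.9, 60.8, 62.8, 57.2 and 56.0 CPM in OIS-v-v libraries, a log2 fold change of 0.87 (edgeR adjusted p = 5.39e-06, standard error 0.09). SERPINB8 went from a range of 22 to 28.1 CPM to one of 49.0 to 54.6 CPM (log2 fold change 1.13, edgeR adjusted p = 7.22e-07, standard error 0.09).

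SERPINB10 had 9 counts over the 5 Grow-v-v and 46 over the 5 OIS-v-v libraries and did not pass the filter. Without the filter its log2 fold change was 2.23 (edgeR adjusted p = 0.00157, standard error 0.48), where 26.2% of genes were called.

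Markers of other cells were looked at beside this rise. SERPINB2 and SERPINB10 are also known from monocytes and blood cells, and the summed level of 5 macrophage and leukocyte markers was 17.1 to 23.8 CPM in Grow and 47.8 to 62.6 CPM in OIS libraries. In both groups 2 of the 5 reached a mean of 1 CPM, and most of the sum was CD68, a lysosomal protein, at 19.1 CPM in Grow and 52.2 CPM in OIS. The defining leukocyte marker PTPRC was at 0.0558 CPM in Grow and 0.168 CPM in OIS, CD14 at 0.389 and 0.312 CPM, and ITGAM at 0 and 0.0745 CPM. CSF1R, the other marker that reached 1 CPM, was at 1.05 CPM in Grow and 3.61 CPM in OIS. The 2 markers that passed the filter were both called higher in OIS against Grow, where 74.8% of all genes tested were called. The summed level of the 7 fibroblast markers went from 34600 to 42800 CPM in Grow to 3340 to 4560 CPM in OIS libraries, mostly through collagens. In the second experiment it went from 31800 to 45800 CPM in Grow-v-v to 8280 to 15400 CPM in OIS-v-v libraries. Of 8 epithelial and keratinocyte markers, 3 reached a mean of 1 CPM in each IMR90 group, and their sum was 96.3 to 123 CPM in Grow and 70.3 to 86 CPM in OIS libraries. Their part in the rise of the SERPINB genes was not tested.

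The next question was whether the rise needs C/EBPβ or p53. Knock-down of CEBPB in OIS cells lowered every member that passed the filter, and SERPINB4 and SERPINB3 fell close to the level of growing cells. Of the 5 members that passed in OIS-shCEBPB against OIS-v-v, 5 were called lower, where 17.1% of all genes tested were called. SERPINB3 passed only through the OIS-v-v libraries, so its place in this count is a description. SERPINB4 stood at 3.32, 2.99, 2.75, 0.945 and 0.788 CPM in OIS-shCEBPB replicates 1 to 5, against 27.2 CPM in the lowest OIS-v-v library. This was a log2 fold change of -4.97 (edgeR adjusted p = 3.24e-05, standard error 0.50).

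SERPINB2 fell too, to a level between senescent and growing cells. It stood at 542, 538, 587, 537 and 507 CPM in OIS-shCEBPB replicates 1 to 5, below every OIS-v-v and above every Grow-v-v library. The log2 fold change against OIS-v-v was -1.66 (edgeR adjusted p = 1.27e-07, standard error 0.08). SERPINB7 stood at 32.6, 28.8, 33.1, 28 and 31.3 CPM, which lies within or just below the Grow-v-v libraries, and its log2 fold change against OIS-v-v was -0.98 (edgeR adjusted p = 1.68e-06, standard error 0.07). The levels of OIS-shCEBPB and Grow-v-v are given side by side, and their difference was not tested.

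SERPINB3 had 1, 4, 1, 0 and 0 counts in OIS-shCEBPB replicates 1 to 5. Its log2 fold change was -5.52 (edgeR adjusted p = 2.98e-04, standard error 0.74), and the ratio of the summed levels, OIS-v-v over OIS-shCEBPB, was 50.8 with a 95% counting interval of 23.0 to 140. The log2 fold change was -6.56 without OIS-shCEBPB replicate 2, which held 4 of the 6 counts, and -7.30 in replicates 4 and 5 alone. SERPINB8 had the smallest log2 fold change of those called. It ranged from 39.8 to 44.3 CPM in OIS-shCEBPB, below the 49.0 to 54.6 CPM of OIS-v-v and above the 22 to 28.1 CPM of Grow-v-v libraries, and changed by -0.33 on the log2 scale against OIS-v-v (edgeR adjusted p = 0.00146, standard error 0.06). SERPINB10 had 24 counts over the 5 libraries and did not pass the filter, and without the filter its log2 fold change was -1.10 (edgeR adjusted p = 0.137, standard error 0.42).

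Knock-down of p53 left SERPINB2 at 1690, 1560, 1530, 1780 and 1690 CPM in OIS-shp53 replicates 1 to 5, inside the range of OIS-v-v libraries. In OIS-shp53 against OIS-v-v, edgeR called 0 of the 6 members that passed the filter, where 4.44% of all genes tested were called. At an unadjusted p under 0.05 the count was also 0, and DESeq2 called 0. These fits ignored the replicate number, and with the number as a block edgeR called 2, as given below. The log2 fold change was -0.05 for SERPINB2 (edgeR adjusted p = 0.784, standard error 0.08), -0.10 for SERPINB8 (edgeR adjusted p = 0.321, standard error 0.05) and 0.41 for SERPINB10 (edgeR adjusted p = 0.621, standard error 0.40).

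For SERPINB4 the replicate number mattered. It stood at 65.1, 64.1, 63.3, 19.8 and 19.9 CPM in OIS-shp53 replicates 1 to 5, and at 96.6, 91.4, 94.1, 27.2 and 29.6 CPM in the OIS-v-v replicates of the same numbers. Each OIS-shp53 library was below the OIS-v-v library of its number, but replicates 4 and 5 of both groups lay far below replicates 1 to 3. Without regard to the number, the log2 fold change was -0.54 (edgeR adjusted p = 0.561, standard error 0.46). With the replicate number as a block it was -0.54 as well, with an adjusted p of 3.12e-06 by edgeR. With replicates 1 to 3 alone it was -0.55 (edgeR adjusted p = 1.16e-09), and with replicates 4 and 5 alone -0.51 (edgeR adjusted p = 0.00454).

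SERPINB3 showed the same split, with 90, 52, 50, 8 and 3 counts in OIS-shp53 replicates 1 to 5. Its log2 fold change was -0.59 (edgeR adjusted p = 0.666, standard error 0.65) and, with the block, -0.67 (edgeR adjusted p = 0.0312). SERPINB7 stood at 79.7, 81.7, 75.2, 45.7 and 50.4 CPM, above every OIS-v-v library in replicates 1 to 3 and below every one in replicates 4 and 5. Its log2 fold change was 0.14 (edgeR adjusted p = 0.670, standard error 0.15), 0.32 in replicates 1 to 3 alone (edgeR adjusted p = 1.84e-05) and -0.24 in replicates 4 and 5 alone (edgeR adjusted p = 0.107).

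With the replicate block, 2 of the 6 members were called (SERPINB4 and SERPINB3), where 22.7% of genes were called. SERPINB3 passed the filter in this comparison only through the OIS-v-v libraries. With replicates 1 to 3 alone, 3 of 6 were called, where 34% of genes were. With replicates 4 and 5 alone, 1 of 5 was called, where 5.33% of genes were. The labels do not say how replicates 4 and 5 differ from the others.

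**Figure D3:**
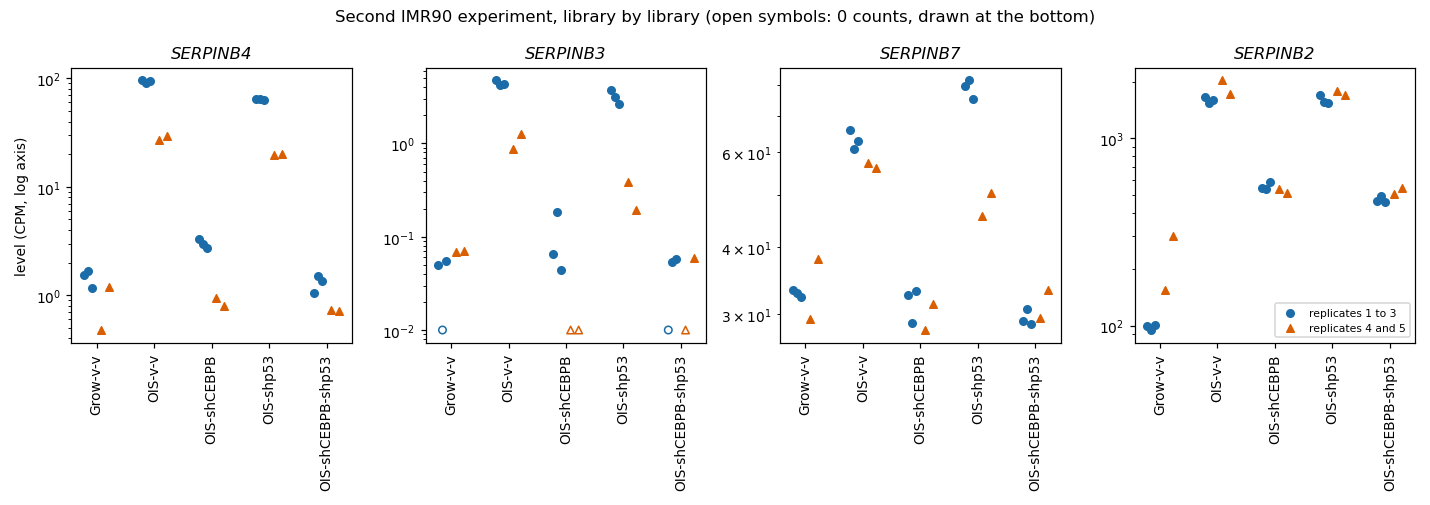
Levels (CPM, log axes that start above 0 and differ between panels) of SERPINB4, SERPINB3, SERPINB7 and SERPINB2 in the 5 groups of the second experiment, with replicates 1 to 3 as blue circles, replicates 4 and 5 as orange triangles and libraries with 0 counts as open symbols at the bottom. In OIS-v-v and OIS-shp53 cells SERPINB4 and SERPINB3 lie lower in replicates 4 and 5, whereas SERPINB2 lies between 1530 and 2040 CPM in all of them.

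The split by replicate number was plain in some genes and not in others. In OIS-v-v libraries the mean of replicates 1 to 3 over that of replicates 4 and 5 was 3.32 for SERPINB4 and 4.16 for SERPINB3, but 1.12 for SERPINB7, 1.01 for SERPINB8 and 0.849 for SERPINB2. In OIS-shCEBPB libraries the ratio for SERPINB4 was 3.49. In Grow-v-v libraries SERPINB2 went the other way, with a ratio of 0.43.

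The members were also lower when the CEBPB hairpin was joined by the p53 hairpin. In OIS-shCEBPB-shp53 against OIS-v-v, 5 of the 5 members that passed the filter were called lower, where 33.6% of all genes tested were called. Here too SERPINB3 passed only through the OIS-v-v libraries, so its place in this count is a description. SERPINB4 stood at 1.06, 1.49, 1.34, 0.733 and 0.717 CPM in OIS-shCEBPB-shp53 replicates 1 to 5, and its log2 fold change was -5.98 (edgeR adjusted p = 2.77e-06, standard error 0.49). SERPINB2 stood at 462, 492, 456, 501 and 540 CPM and had a log2 fold change of -1.80 (edgeR adjusted p = 2.33e-08, standard error 0.08). SERPINB7 had a log2 fold change of -1.0 (edgeR adjusted p = 3.57e-07, standard error 0.06) and SERPINB8 of -0.46 (edgeR adjusted p = 2.61e-05, standard error 0.05). SERPINB3 had 3 counts in all over the 5 libraries, with a log2 fold change of -6.27 (edgeR adjusted p = 7.86e-05, standard error 0.78) and a ratio, OIS-v-v over OIS-shCEBPB-shp53, of 93.1 with a 95% counting interval of 31.5 to 454. In replicates 4 and 5 alone the log2 fold change was -4.93 for SERPINB3 and -5.27 for SERPINB4. SERPINB10 did not pass the filter, and without it had a log2 fold change of -0.34 (edgeR adjusted p = 0.586, standard error 0.40).

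Against OIS-shp53, which gives the effect of the CEBPB hairpin on the p53 knock-down background, 4 of the 5 members that passed the filter were called in OIS-shCEBPB-shp53 cells, where 27.6% of genes were called. Their log2 fold changes were -1.76 for SERPINB2 (edgeR adjusted p = 1.14e-09, standard error 0.06), -5.44 for SERPINB4 (edgeR adjusted p = 4.49e-06, standard error 0.48), -1.15 for SERPINB7 (edgeR adjusted p = 1.27e-04, standard error 0.15) and -0.37 for SERPINB8 (edgeR adjusted p = 2.70e-05, standard error 0.04). SERPINB10 had a log2 fold change of -0.76 (edgeR adjusted p = 0.200, standard error 0.41). SERPINB4 was at -4.77 in replicates 4 and 5 alone. SERPINB3 did not pass the filter, and the ratio of its summed levels, OIS-shp53 over OIS-shCEBPB-shp53, was 64.0 with a 95% counting interval of 21.6 to 313. This comparison and that with OIS-v-v share the OIS-shCEBPB-shp53 libraries, as the comparisons with OIS-v-v share the OIS-v-v libraries.

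Against OIS-shCEBPB, which gives the effect of the p53 hairpin on the CEBPB knock-down background, edgeR called 0 of the 4 members that passed the filter, where 14.8% of genes were called. At an unadjusted p under 0.05 the count was 3, and DESeq2 called 0. These fits ignored the replicate number. SERPINB4 had a log2 fold change of -1.0 (edgeR adjusted p = 0.108, standard error 0.39), SERPINB2 of -0.14 (edgeR adjusted p = 0.110, standard error 0.06) and SERPINB8 of -0.12 (edgeR adjusted p = 0.108, standard error 0.05). SERPINB7 had one of -0.02 (edgeR adjusted p = 0.857, standard error 0.06). Without the filter, SERPINB3 was at -0.75 and SERPINB10 at 0.76 (edgeR adjusted p = 0.684 and 0.365).

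With the replicate number as a block, 3 of these 4 were called, where 33% of genes were called. They were SERPINB4 (log2 fold change -0.97, edgeR adjusted p = 0.00235), SERPINB2 (-0.15, edgeR adjusted p = 0.0363) and SERPINB8 (-0.12, edgeR adjusted p = 0.0496). With replicates 1 to 3 alone, 2 of 4 were called, where 32.5% of genes were. SERPINB4 had a log2 fold change of -1.2 there and of -0.27 in replicates 4 and 5 alone (edgeR adjusted p = 1.07e-04 and 0.729). Leaving out OIS-shCEBPB replicate 4 or 5 brought SERPINB4 past the threshold without a block (log2 fold change -1.2 in both, edgeR adjusted p = 0.0384 and 0.0267).

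The interaction asks whether the effect of both hairpins together differs from the sum of their single effects. edgeR called 0 of the 6 members that passed the filter, where 0.0432% of genes were called, and 0 had an unadjusted p under 0.05. DESeq2 called 0 as well, and these fits ignored the replicate number. The interaction term on the log2 scale was -0.46 for SERPINB4 (standard error 0.82), -0.09 for SERPINB2 (standard error 0.10), -0.16 for SERPINB7 (standard error 0.18), -0.03 for SERPINB8 (standard error 0.06), -0.16 for SERPINB3 (standard error 1.35) and 0.36 for SERPINB10 (standard error 0.58), all with an edgeR adjusted p of 0.999. With the number as a block, edgeR called no member and 104 genes in all, and the term for SERPINB4 was -0.45 (edgeR adjusted p = 0.267). With replicates 1 to 3 alone, 3 of 6 were called, where 3.32% of genes were. These were SERPINB7 (-0.41, edgeR adjusted p = 0.0055), SERPINB2 (-0.24, edgeR adjusted p = 0.0365) and SERPINB4 (-0.65, edgeR adjusted p = 0.0396). In replicates 4 and 5 alone, the term had the opposite sign in each, at 0.32 for SERPINB7, 0.11 for SERPINB2 and 0.25 for SERPINB4 (edgeR adjusted p = 0.176, 0.66 and 0.841).

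In the second experiment the levels of SERPINB2 rose from Grow-v-v to OIS-shCEBPB-shp53 and OIS-shCEBPB and then to OIS-shp53 and OIS-v-v. The ranges of both CEBPB knock-downs overlapped, as did those of OIS-shp53 and OIS-v-v, and the 3 tiers did not. SERPINB4 had its lowest means in OIS-shCEBPB-shp53 (1.07 ± 0.349 CPM, SD, n = 5) and Grow-v-v (1.21 ± 0.465 CPM), followed by OIS-shCEBPB (2.16 ± 1.2 CPM), OIS-shp53 (46.4 ± 24.3 CPM) and OIS-v-v (67.8 ± 36 CPM). The first 3 of these groups overlapped with each other, as did the last 2, and there was no overlap between both sets.

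In H1299 cells the cluster was mostly silent. SERPINB4 and SERPINB3 had 0 counts in all 13 libraries, against a mean floor of 0.140 CPM per H1299 library for 3 counts, so they were not detectable at this depth with or without HMGA1 knock-down. SERPINB8 was the member with the highest level per kilobase (3.57 CPM per kb), followed by SERPINB7 (1.01 CPM per kb). SERPINB2, the most abundant member in fibroblasts, had 5 to 10 counts per H1299 library. SERPINB10 had 1 count in all over the 13 libraries.

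Of the 2 members that passed the filter in H1299-shA1 against H1299, SERPINB8 was called, where 15.6% of all genes tested were called. It stood at a lowest, median and highest level of 7.09, 7.69 and 10.6 CPM in H1299 and of 7.98, 10.9 and 14.8 CPM in H1299-shA1 libraries, and the groups overlapped. The log2 fold change was 0.41 (edgeR adjusted p = 0.0446, standard error 0.14). The call ended without any 1 of H1299 replicates 2, 3, 5 and 7 or H1299-shA1 replicates 2, 4 and 5, with a log2 fold change between 0.32 and 0.50 over all 13 such fits and an adjusted p of up to 0.133. SERPINB7 had a log2 fold change of 0.08 (edgeR adjusted p = 0.839, standard error 0.19).

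SERPINB2 did not pass the filter in H1299 cells, with a lowest, median and highest level of 0.271, 0.306 and 0.433 CPM in H1299 and of 0.422, 0.826 and 1.23 CPM in H1299-shA1 libraries. Of the H1299-shA1 libraries, 5 of 6 lay above every H1299 library. Without the filter the log2 fold change was 1.31 (edgeR adjusted p = 0.0013, standard error 0.28), where 7.82% of genes were called. These levels rest on 49 counts over 7 libraries and 99 counts over 6.

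The genes around the cluster were looked at for comparison. Within 1000 kb outside the members, 18 genes were counted, and 5 to 6 passed the filter in each comparison. In OIS against Grow, 3 were higher and 2 lower at an adjusted p under 0.05, where 74.8% of all genes were called, with a median log2 fold change of 0.17. KDSR, a reductase of sphingolipid synthesis, was higher in OIS (log2 fold change 0.96, edgeR adjusted p = 6.87e-18), and BCL2, the inhibitor of apoptosis, was lower (-1.68, edgeR adjusted p = 2.46e-09). In OIS-shCEBPB against OIS-v-v, 1 was higher and 1 lower, where 17.1% of all genes were called, with a median of -0.14. HMSD, which overlaps SERPINB8, was the only tested gene among the non-SERPINB genes between the members. It went from 0.185 ± 0.153 CPM (SD, n = 5) in OIS-v-v to 1.21 ± 0.267 CPM in OIS-shCEBPB-shp53 libraries. Its log2 fold change was 2.67 (edgeR adjusted p = 5.75e-04, standard error 0.43), where 33.6% of all genes tested were called. HMSD passed the filter there only through the OIS-shCEBPB-shp53 libraries, so its rise is given as a description. Its log2 fold change was opposite in sign to that of its neighbour SERPINB8.

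The SERPINB genes of 6p25 did not rise with the 18q21 genes in OIS cells. SERPINB1, SERPINB6 and SERPINB9 were all called lower in OIS against Grow, where 74.8% of all genes were called, with log2 fold changes of -0.48, -0.49 and -1.30 (edgeR adjusted p = 1.97e-09, 4.73e-11 and 4.29e-13). In OIS-v-v against Grow-v-v, 1 of the 3 was called, where 45.8% of all genes were, SERPINB9 at -1.0 (edgeR adjusted p = 1.75e-04). In OIS-shCEBPB against OIS-v-v, SERPINB1 had a log2 fold change of 0.14, SERPINB6 of 0.04 and SERPINB9 of -0.01 (edgeR adjusted p = 0.286, 0.818 and 0.972). In OIS-shA1 against OIS and in H1299-shA1 against H1299, SERPINB9 alone of the 3 was called by edgeR, lower in both (-0.33 and -0.40, adjusted p = 0.0315 and 0.00759). Of all genes tested, 35.9% and 15.6% were called in these comparisons.

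Among the partners of SERPINB2 in plasminogen activation, genes were called in both directions. Of 7 listed genes, 6 passed the filter in OIS against Grow, with 2 called higher and 4 lower where 74.8% of all genes were called, and a median log2 fold change of -0.64, against 0.027 over all genes. PLAU, the urokinase that SERPINB2 inhibits, was higher at 0.72 (edgeR adjusted p = 5.50e-15), and S100A10, a plasminogen receptor subunit, was lower at -1.10 (edgeR adjusted p = 1.09e-14). In OIS-v-v against Grow-v-v, 2 were called higher and 1 lower, where 45.8% of all genes were called, among them PLAU at 1.04 (edgeR adjusted p = 2.62e-06) and S100A10 at -0.50 (edgeR adjusted p = 0.00968).

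With knock-down of HMGA1 in OIS cells, 3 of the 6 tested genes of this list were called higher and none was called lower, where 35.9% of all genes were called, with a median log2 fold change of 0.14. PLAUR, the urokinase receptor, was higher at 0.37 (edgeR adjusted p = 1.96e-06), and PLAU at 0.21 (edgeR adjusted p = 6.65e-05). In H1299-shA1 against H1299, 3 of 6 were higher and none was lower, where 15.6% of all genes were called, with PLAU at 0.81 (edgeR adjusted p = 2.07e-04). In OIS-shCEBPB against OIS-v-v, PLAU was at -0.15 (edgeR adjusted p = 0.209) and PLAUR at -0.14 (edgeR adjusted p = 0.11).

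Among 7 target proteases of the other members, 4 passed the filter in OIS against Grow. Cathepsins S and L, targets of SERPINB3, were called higher where 74.8% of all genes were called, CTSS at a log2 fold change of 2.44 (edgeR adjusted p = 8.68e-22) and CTSL at 0.55 (edgeR adjusted p = 3.50e-14). FURIN, the target of SERPINB8, was at -0.09 (edgeR adjusted p = 0.221). In OIS-shA1 against OIS, 3 were called higher and 1 lower, where 35.9% of all genes were called, with a median of 0.50, among them CTSS at 1.0 (edgeR adjusted p = 6.29e-14) and CTSK at 0.75 (edgeR adjusted p = 1.56e-09). CTSG and CMA1, targets of SERPINB4, did not pass the filter in any comparison.

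**Figure D4:**
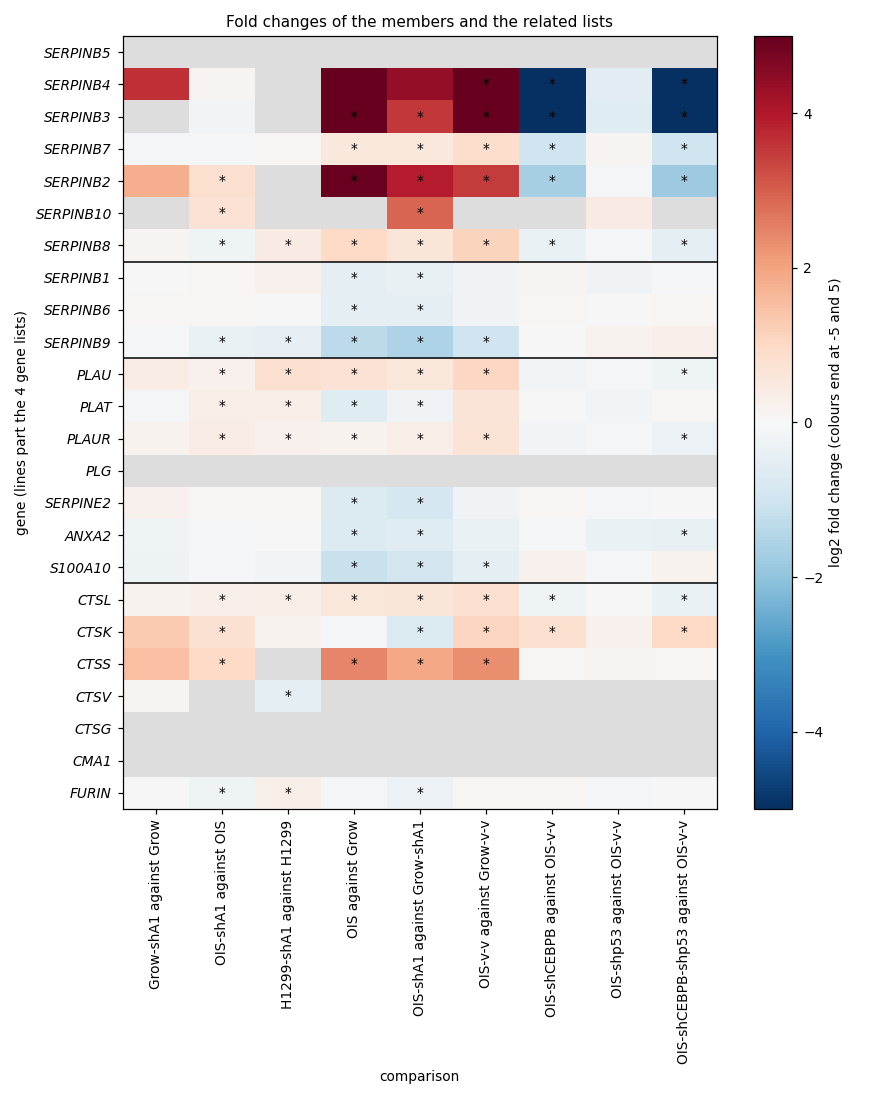
log2 fold change (colour, ends at -5 and 5) of the members, the 6p25 SERPINB genes, the plasminogen activation genes and the target proteases (rows) in 9 comparisons (columns), with asterisks at an edgeR adjusted p under 0.05 and grey where a gene did not pass the filter. Grow-shA1 against Grow, and SERPINB4 in both comparisons with those groups, bear no asterisks since no test is given there, and SERPINB4, SERPINB3 and SERPINB2 show the deepest colours in the OIS and shCEBPB columns.

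Finally, the genes most like each member were listed by Pearson's r of log2 CPM over the libraries of an experiment. These libraries share the difference between growing and senescent cells, so high values are common. Over the 32 libraries of the first experiment, the gene most like SERPINB2 was KCNJ15 (r = 0.996), followed by NRG1 (0.994) and PITPNC1 (0.993). KCNJ15 was also the gene most like SERPINB4 (0.989), ahead of OAF (0.988) and SMAP2 (0.985). Over the 25 libraries of the second experiment, SERPINB2 was most like SLC25A37 (0.980), IER3 (0.977) and CXCL3 (0.976), and SERPINB4 was most like CITED2 (0.979), CCL20 (0.975) and TMX4 (0.970).

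Other members stood among the 3 nearest genes of SERPINB3 and SERPINB7 in the second experiment, and of no member in the first. SERPINB3 was most like SERPINB4 (r = 0.952), with SERPINB7 at rank 3 (0.940), and SERPINB7 had SERPINB4 (0.945) and SERPINB3 (0.940) at ranks 2 and 3. The counts of SERPINB3 per 100 counts of SERPINB4 were 3.15 in OIS, 2.68 in OIS-shA1, 4.56 in OIS-v-v and 4.47 in OIS-shp53 libraries. They were 4.52 in Grow-shA1, 3.85 in Grow-v-v and 2.82 in OIS-shCEBPB libraries, from 15, 4 and 6 counts of SERPINB3. Whether SERPINB3 counts arise from transcripts of its near copy SERPINB4 was not tested. In the first experiment, SERPINB8 was most like FBXO32 (0.969) and SERPINB7 most like BCCIP (0.948).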

How the data were processed

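RNA was measured by RNA-seq with stranded mRNA kits. The authors deposited raw counts, without normalization, that featureCounts made over GENCODE19 exons from STAR alignments to hg19. The table headers name featureCounts 1.5.2 and show counting without regard to strand, without multiply aligned reads and without reads on several genes (fragments in the first IMR90 table, reads in the H1299 table), so reads from antisense transcripts cannot be told apart. The second IMR90 table has no header, so its options are not known. Deposited starts lie 1 base before the annotated exon starts and were moved by 1.

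The members and lists were chosen with earlier results of these data known. The members were to be named in every comparison (SERPINB5, with at most 2 counts, is named once), the other lists by their counts in each direction with examples, and the 3 genes most like each member by r. Symbols were found for 95.9% of gene identifiers. Pairwise edgeR 4.0.16 fits (R 4.3.3; TMM, filterByExpr with a minimum of 10 counts, quasi-likelihood F test) used the libraries of both groups, and Benjamini-Hochberg adjustment covered all genes of a fit, with a threshold of 0.05. The standard error is the log2 fold change divided by the square root of F. Likeness used log2 CPM with a prior count of 2. A list's fold bound used a floor of 3 counts per library. The fits were tested on simulated data.

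Alternatives were DESeq2 1.42.0, unscaled library sizes, upper-quartile factors, an adjusted p under 0.01, only genes without any count dropped, all groups in 1 fit, the replicate block and each library left out. Fits on replicates 1 to 3 and on replicates 4 and 5 were added after seeing the data. Same-numbered libraries of the compared groups deviated together in the second experiment. Their deviations from the group means over genes had correlations of 0.13 to 0.54, so there the numbers were taken to pair the libraries. The main fits hold no block and ignore this pairing, and only the fits with the replicate block use it. In the first experiment and in H1299 these correlations ran from -0.13 to 0.17 and from -0.15 to 0.29. There the numbers were not taken to pair. Nothing in the labels says whether replicates are separate cultures beyond the words biological replicates, and p-values measure the spread between these libraries. Depth was 1903607 to 24890797 counts per library, and intervals and floors cover counting error only. The kit and sequencer of each library are not given in the sources used here. Data of other assays were not analysed here, and the levels of 1 listed gene and 1 targeted gene are not reported here. Plots were made in matplotlib 3.10.9 (Python 3.11.15).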

Additional observations from a re-analysis of the deposited data

Results flagged for a closer look

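Levels of members with a group mean of at least 1 CPM were searched for single libraries far from the rest of their group. In 45 groups of libraries, 4 stood out by Dixon's criterion, which chance meets in about 1 of 20 groups. In Grow-v-v, replicate 5 was high for both SERPINB2 (302 CPM, next 155 CPM) and SERPINB8 (28.1 CPM, next 23.8 CPM). In Grow, replicate 8 was low for SERPINB8 (28.3 CPM, next 34.2 CPM). In OIS, replicate 4 was high for SERPINB10 (2.44 CPM, next 1.26 CPM), a value from 5 counts in the shallowest library.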

How the results depend on the processing

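The number of members called, or for Grow-shA1 against Grow their median log2 fold change (0.98, and 0.97 to 1.0, or 0.91 to 1.08 with 1 library left out under the other settings), stayed within 1.5 times of its value in most fits, and no called fold change turned its sign. In OIS-shp53 against OIS-v-v, 0 became 2 with the replicate block, 3 with replicates 1 to 3 alone and 1 with replicates 4 and 5 alone. In OIS-shCEBPB-shp53 against OIS-shCEBPB, 0 became 3 with the replicate block and 2 with replicates 1 to 3 alone, and leaving out 1 library each gave 0 to 1. In H1299-shA1 against H1299, 1 became 0 at an adjusted p under 0.01, and leaving out 1 library each gave 0 to 1. The interaction went from 0 to 3 with replicates 1 to 3 alone. The replicate block changed no other call of a member. In the first experiment and in H1299, where the numbers share only a number, between 2 and 5 of the 12 to 16 libraries of a comparison were most like the library of their own number. The calls of SERPINB10 in OIS-shA1 against OIS ended with library sizes alone, without the filter, with all groups in 1 fit and at an adjusted p under 0.01 (adjusted p up to 0.0998). Why these calls moved was not tested. With library sizes alone, the median log2 fold change of all genes in OIS against Grow was 0.216 instead of 0.027, and the share of calls that were higher in OIS-shA1 against OIS was 27.8% instead of 52.3%. Depth limits SERPINB3, SERPINB10 and SERPINB5, which rest on few counts.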
